A study of Mus musculus with 17 samples.

Results

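The genes described here encode the enzymes that activate fatty acids, carry them into mitochondria, oxidise them and handle the acyl-CoA and ketone bodies that result. They were taken by gene symbol from a list of 31 genes covering mitochondrial and peroxisomal beta-oxidation, acyl-CoA synthetases and thioesterases, and ketone body enzymes. All 31 were among the 21982 genes of the deposited count table, and all 31 passed the low-count filter that left 12486 genes for testing. They took 1.37 to 1.8% of the counts of a library, or 3.01 to 3.67% of the counts outside the mitochondrially encoded genes.

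In brown fat, the heat-producing adipose tissue, fatty acids released from lipid droplets or taken up from blood are joined to coenzyme A by acyl-CoA synthetases and passed to carnitine for transport across the inner mitochondrial membrane. Each turn of beta-oxidation then runs through a dehydrogenase, a hydratase, a second dehydrogenase and a thiolase, with electrons handed to the respiratory chain through the electron transfer flavoproteins. Peroxisomes run a related pathway on other chains, thioesterases split acyl-CoA back into free fatty acid, and ketone bodies enter as an alternative fuel.

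The mRNA of brown adipose tissue came from 17 mice of C57BL/6 background, each giving 1 library, in 4 groups set by Nocturnin genotype and by 4 h of housing at 6 °C or 22 °C, alone and without food. The groups were homozygous Noct knockouts at 6 °C (n = 4, 3 males and 1 female), knockouts at 22 °C (n = 4, 3 males and 1 female), wild-type littermates at 6 °C (n = 5, 1 male and 4 females) and wild types at 22 °C (n = 4, 1 male and 3 females). Labelled ages ran from 11.14 to 23.57 with no unit. The labels give the knockout as homozygous with no restriction to a tissue, and neither the part of Noct that was removed nor the time of day.

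Library totals were 18410748 to 47598200 counts, of which mitochondrially encoded genes took 43.4 to 57.3%. Noct, the targeted gene, had 22.6 ± 4.46 CPM (counts scaled to library size with TMM factors) in knockouts at 6 °C, 13.2 ± 14.3 CPM in knockouts at 22 °C, 346 ± 81.7 CPM in wild types at 6 °C and 139.5 ± 35.6 CPM in wild types at 22 °C (SD, n = 4, 4, 5 and 4), so that no knockout reached the level of any wild type. All 10 brown adipocyte markers were measured, with Ucp1 at 3684 to 7847 CPM. In the cold, 5 of them rose and 1 fell in knockouts, and 5 rose and 2 fell in wild types in edgeR. Summed over 15 genes, skeletal muscle markers ranged from 28.5 to 1265 CPM in knockouts at 6 °C, 68.6 to 1039 CPM in knockouts at 22 °C, 50.4 to 1015 CPM in wild types at 6 °C and 35.8 to 800.5 CPM in wild types at 22 °C, and 0 of the 15 passed the test for a change in the cold in either genotype in edgeR. Of 7 endothelial markers 2 rose and 1 fell in the cold in knockouts, and 3 rose and 1 fell in wild types, with sums of 453 to 672 CPM in knockouts at 6 °C, 483 to 532 CPM in knockouts at 22 °C, 510.2 to 643 CPM in wild types at 6 °C and 409 to 523 CPM in wild types at 22 °C. Of 8 macrophage markers 1 rose in each genotype, and their sums were 55.9 to 95 CPM in knockouts at 6 °C, 47.6 to 54.5 CPM in knockouts at 22 °C, 51.9 to 76.3 CPM in wild types at 6 °C and 53.6 to 76 CPM in wild types at 22 °C. The part of these markers in the members' cold responses was not tested. One library, wild type at 6 °C replicate 5, held the hepatocyte marker Alb at 27.1 CPM against at most 1.18 CPM elsewhere. Another, wild type at 22 °C replicate 2, stood apart in its group for a high level of the coactivator gene Ppargc1a (493 CPM, against 92.4 to 116 CPM in the other 3).

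Per length, the most abundant of the 31 mRNAs were those of the dehydrogenase and thiolase steps. In RPKM, the authors' deposited read counts divided by gene length and library total, Acadl averaged 883 over the 17 libraries, Acaa2 441, Acadvl 430, Acadm 334 and Acsl1 274. For 25 of the 31 members the length equalled all exons joined in GENCODE vM21, such as 10483 bases for Acsl1 and 2005 for Acadl. It was shorter for Acsl5 (3150 against 4864 bases), Cpt1a (4300 against 7642) and Eci1 (1091 against 2127). Smaller differences were found for Acaa2, Ehhadh and Bdh1. The order depends on these lengths: undivided by length, Acsl1 (2055 to 4099 CPM) stood above Acadl (1496 to 2037 CPM). Mean levels of 22 members stood in the top 4% of tested genes, from Acadl at percentile 99.9 to Echs1 at percentile 96. The lowest were Cpt1a at 1.88 RPKM, Acot1 at 1.4 RPKM and Bdh1 at 0.0973 RPKM, which stands at percentile 4.65.

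**Figure D1:**
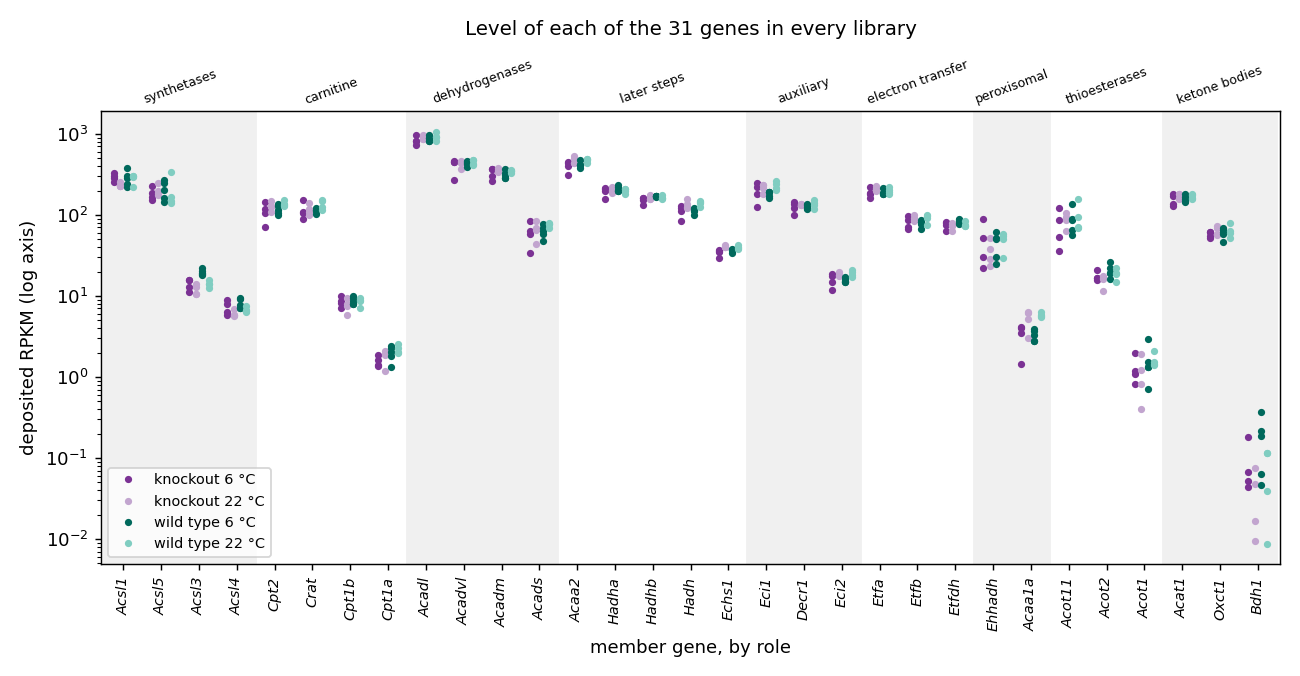
Deposited RPKM (log axis) of each of the 31 genes, grouped by role along the horizontal axis; each point is 1 of the 17 libraries, coloured by group. Acadl lies highest at 721 to 1069 RPKM and Bdh1 lowest at 0.00879 to 0.372 RPKM, and within a gene the 4 groups mostly overlap.

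Most of these genes did not pass the test for a change in the cold, in either genotype. A gene that "rose" or "fell" had an adjusted p under 0.05 (edgeR quasi-likelihood test, Benjamini-Hochberg over the 12486 genes). In knockouts 1 of 31 members rose (Acsl1) and 1 fell (Acaa1a), beside 11.6% and 10% of all tested genes that rose and fell. In wild types 4 rose (Acsl3, Acsl4, Hadha and Hadhb) and 1 fell (Acaa1a), beside 14.3% and 13.3% of all tested genes. Averaged over the genotypes, 6 rose (Acsl1, Acsl3, Acsl4, Cpt1b, Acot2 and Bdh1) and 1 fell (Acaa1a), beside 20.6% and 20.5%. The share of members called in either direction was thus 6.45% against 21.6% of all genes in knockouts, 16.1% against 27.6% in wild types and 22.6% against 41.1% in the average.

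Groups at 6 °C and 22 °C did not overlap for 1 of 31 members in knockouts (Acsl1), beside 20.2% of all tested genes, and for 6 of 31 in wild types (Acsl3, Acsl4, Hadha, Hadhb, Etfdh and Acaa1a), beside 25.8%. The sizes were small as well. The median log2 change of the 31 members in the cold was -0.07 in knockouts and 0.1 in wild types, and over all tested genes it was -0.02 and -0.03. With libraries scaled to their total counts, the members' median was -0.13 in knockouts and -0.1 in wild types, beside -0.09 and -0.23 over all tested genes. The sign of the members' median in wild types thus depended on the scaling. The 95% interval of the change lay within a fold of 1.5 in either direction for 23 members in knockouts and 22 in wild types, a limit chosen after the values were seen. Among all tested genes the corresponding shares were 39.9% and 40.3%. Since the tissue was sequenced whole, fewer cells of a type and less RNA per cell cannot be told apart in any of these values.

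**Figure D2:**
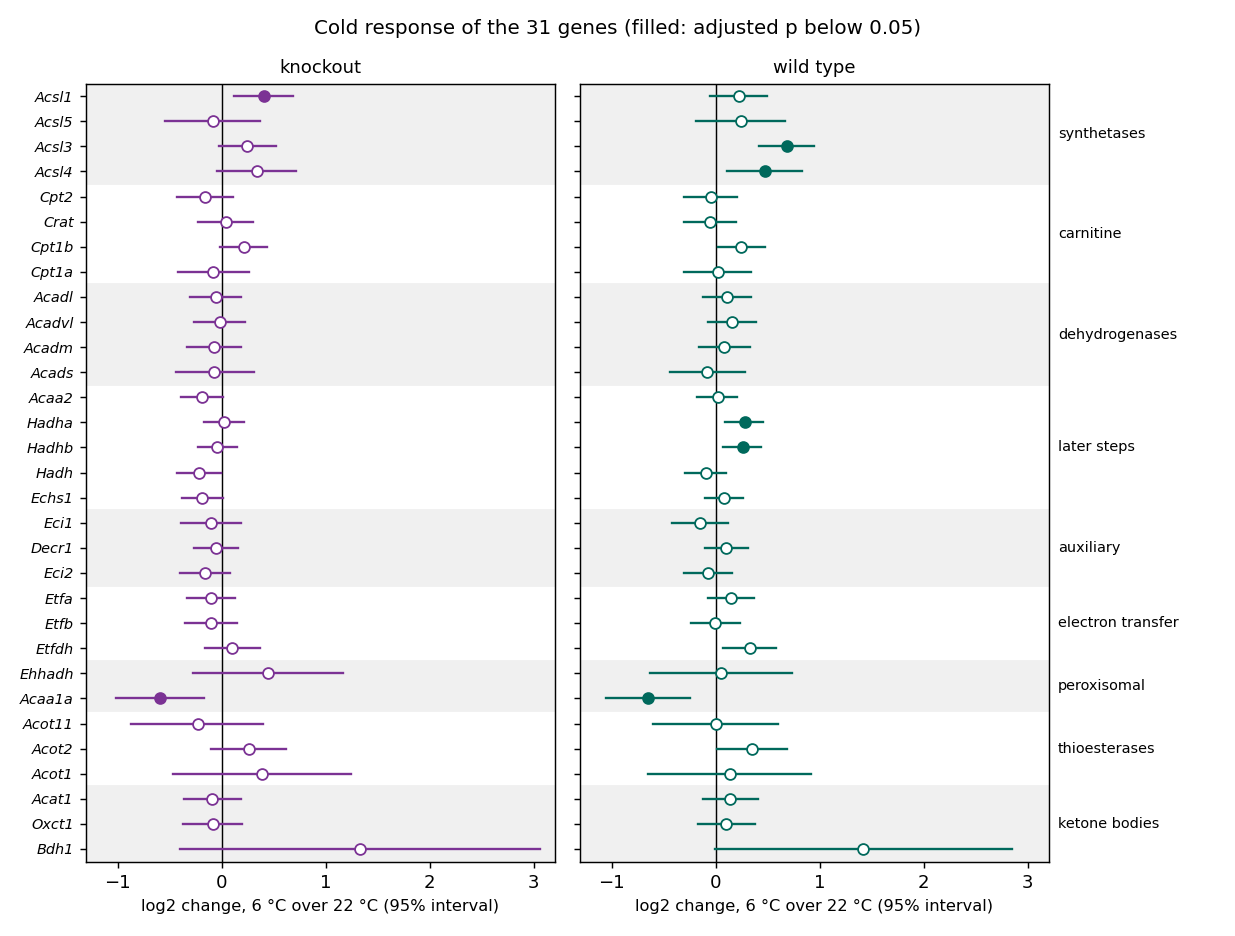
Log2 change of each of the 31 genes at 6 °C over 22 °C in knockouts (left) and wild types (right), with its 95% interval; filled circles passed the test (adjusted p below 0.05 in edgeR). In knockouts Acsl1 (0.41) and Acaa1a (-0.59) are filled, and in wild types Acsl3 (0.69), Acsl4 (0.47), Hadha (0.28), Hadhb (0.26) and Acaa1a (-0.65); Bdh1 has the widest intervals.

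The acyl-CoA synthetases, which activate long-chain fatty acids, had 3 of 4 members rise in the average over genotypes, where 20.6% of all tested genes rose. In knockouts 1 of the 4 rose, beside 11.6% of all tested genes. In wild types 2 rose, beside 14.3%, as many as among the later steps of beta-oxidation in wild types. Acsl3, known for its place on the endoplasmic reticulum and on growing lipid droplets, had 58.5, 72, 57.8 and 67.6 CPM in knockouts at 6 °C, against 53, 47.3, 43.5 and 72.3 CPM in knockouts at 22 °C. In wild types it had 88.4, 92.1, 87.7, 81.8 and 90.5 CPM at 6 °C, against 53.3, 63.2, 49.6 and 54.4 CPM at 22 °C. All 5 cold wild types thus lay above all other libraries, while the knockout groups overlapped through 1 high library at 22 °C, replicate 4. The log2 change was 0.69 ± 0.13 (SE) in wild types, a fold of 1.61 (adjusted p = 0.00089 in edgeR), and 0.24 ± 0.13 in knockouts (adjusted p = 0.212). Averaged over the genotypes Acsl3 rose by 0.46 ± 0.09 log2 (adjusted p = 0.000588 in edgeR). Without knockout 22 °C replicate 4 the change in knockouts was 0.4 and passed (adjusted p = 0.0186).

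Acsl4, which prefers arachidonic acid and related chains, had 44.3, 36.2, 57.9 and 31.3 CPM in knockouts at 6 °C, against 29.9, 31.9, 29.1 and 43.6 CPM in knockouts at 22 °C. Wild types held 40.1, 39.9, 56.7, 49.5 and 39.9 CPM at 6 °C, against 35.5, 32.8, 31.8 and 30.2 CPM at 22 °C. Every cold wild type lay above every wild type at 22 °C, and in knockouts the groups overlapped. The change was 0.34 ± 0.18 log2 in knockouts (adjusted p = 0.2), 0.47 ± 0.17 in wild types (adjusted p = 0.0476) and 0.4 ± 0.12 in the average (adjusted p = 0.0143, all in edgeR). With library totals the wild-type value was 0.26 (adjusted p = 0.136). The wild-type call is marginal: it was lost in 10 of the 17 fits that leave out 1 library (adjusted p of 0.05 to 0.113) and kept without wild type 6 °C replicate 5, knockout 22 °C replicates 2, 3 or 4, or knockout 6 °C replicates 2, 3 or 4.

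Acsl1, the most abundant synthetase here and the one tied to fatty acid oxidation in brown fat, had 2786, 3172, 3846 and 3436 CPM in knockouts at 6 °C, against 2270.1, 2398, 2511 and 2775 CPM in knockouts at 22 °C. These groups did not overlap, by a margin of 2786 against 2775 CPM. Wild types held 3328, 4099, 2816, 2304 and 2834 CPM at 6 °C, against 2055, 2788, 2906 and 2799 CPM at 22 °C, and these overlapped. Acsl1 rose by 0.41 ± 0.14 log2 in knockouts (adjusted p = 0.0399) and by 0.31 ± 0.09 in the average (adjusted p = 0.0123), and its value in wild types was 0.22 ± 0.13 (adjusted p = 0.212, all in edgeR). In the average the value was 0.18 with library totals (adjusted p = 0.13) and in limma on log2(RPKM + 1) (adjusted p = 0.131), which ended the call, and in knockouts 0.33 (adjusted p = 0.0912 and 0.0923). The call in knockouts was lost without knockout 22 °C replicate 2 (adjusted p = 0.11) or 3 (0.0776) and without knockout 6 °C replicate 1 (0.0613) or 3 (0.0988).

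Acsl5, found on the mitochondrial outer membrane and the endoplasmic reticulum, did not pass in any comparison and varied widely between mice of 1 group. It ranged from 518 to 738 CPM in knockouts at 6 °C, 558 to 742 CPM in knockouts at 22 °C, 473 to 885 CPM in wild types at 6 °C and 396 to 921 CPM in wild types at 22 °C. Its ratio to Acsl1, both as RPKM, ran from 0.384 to 1.49 over the 17 libraries, and the library with the highest ratio was wild type at 22 °C replicate 1, where Acsl5 was at its highest and Acsl1 at its lowest. The ratio depends on the lengths used, 10483 bases for Acsl1 and 3150 for Acsl5. Undivided by length, Acsl5 (at most 921 CPM) stood below Acsl1 (at least 2055 CPM) in every library. The ranges of Acsl5 in the 4 groups all overlapped.

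In the carnitine shuttle, which moves acyl groups into the mitochondrial matrix, 1 of the 4 members rose in the average over genotypes and 0 in either genotype alone. The shares of all tested genes that rose were 20.6% in the average, 11.6% in knockouts and 14.3% in wild types. Cpt1b, the muscle-type carnitine palmitoyltransferase of the outer membrane, had 29.7, 29.2, 28.6 and 33 CPM in knockouts at 6 °C, against 24, 27.3, 29.8 and 23.1 CPM in knockouts at 22 °C. Wild types held 33, 30.7, 30.4, 26.7 and 31.5 CPM at 6 °C, against 21.1, 26.9, 26.9 and 28.3 CPM at 22 °C. Cold groups had the higher mean in both genotypes, with overlap, and the changes were 0.21 ± 0.11 log2 in knockouts (adjusted p = 0.197), 0.24 ± 0.11 in wild types (adjusted p = 0.0935) and 0.23 ± 0.08 in the average (adjusted p = 0.0243, all in edgeR). The call in the average depended on the scaling: the value was 0.09 with library totals (adjusted p = 0.485) and 0.08 in limma on log2(RPKM + 1) (adjusted p = 0.462). Of the 3372 exonic bases of Cpt1b in the GENCODE vM21 annotation (GRCm38), 2744 (81.4%) also belong to exons of Gm44502, an annotated gene on the same strand. Reads that a counter finds in both genes are commonly set aside, and no source used here says how they were treated, so the level of Cpt1b (8.39 RPKM on average) may be too low.

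Cpt1a, the liver-type form of the same enzyme, lay at 5.87 to 10.3 CPM, with 95% intervals of the log2 change of -0.42 to 0.26 in knockouts and -0.3 to 0.34 in wild types. Per length, Cpt1b stood 2.79 to 6.09 times above Cpt1a in every library, before any allowance for the shared exons. The length used for Cpt1a was 4300 bases, against 7642 with all exons joined. Cpt2, the inner-membrane partner, had 288, 267, 205 and 341 CPM in knockouts at 6 °C, against 288, 304, 336 and 301 CPM in knockouts at 22 °C. It had 289.8, 252, 282, 307 and 306 CPM in wild types at 6 °C, against 269.7, 296, 289 and 325 CPM in wild types at 22 °C. All 4 groups of Cpt2 overlapped, and the same held for Crat, the carnitine acetyltransferase, at 544 to 824 CPM. Their changes in the cold were -0.16 ± 0.13 log2 (Cpt2) and 0.04 ± 0.12 (Crat) in knockouts, and -0.04 ± 0.12 and -0.05 ± 0.12 in wild types.

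Acyl-CoA dehydrogenases, which open each turn of beta-oxidation, were the most abundant role per length. Their summed levels were 1288 to 1857 RPKM in knockouts at 6 °C and 1619 to 1859 RPKM in knockouts at 22 °C. In wild types they were 1607 to 1854 RPKM at 6 °C and 1662 to 1956 RPKM at 22 °C. None of the 4 passed in any comparison in edgeR, at adjusted p of at least 0.305 for the cold responses. Acadl, the long-chain enzyme, had 1693, 2037, 1732 and 1635 CPM in knockouts at 6 °C, against 1763, 1951, 1658 and 1993 CPM in knockouts at 22 °C. Wild types held 2012, 1841, 1983, 1630.2 and 1525 CPM at 6 °C, against 1872, 1672, 1496 and 1635 CPM at 22 °C. The ranges overlapped almost fully, and the 95% intervals of the log2 change were -0.3 to 0.19 in knockouts and -0.12 to 0.34 in wild types. For Acadvl, the very-long-chain enzyme, they were -0.27 to 0.22 and -0.07 to 0.39, for Acadm, the medium-chain enzyme, -0.33 to 0.19 and -0.16 to 0.33, and for Acads, the short-chain enzyme, -0.44 to 0.31 and -0.44 to 0.28. Exons of Dvl2 on the other strand cover 42.9% of the exonic bases of Acadvl, and Dvl2 itself was counted at no more than 3.17 CPM. The strand setting and the treatment of reads found in both genes are not given, so the level of Acadvl may be too low.

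Among the later steps of the spiral, Hadha and Hadhb rose in wild types. They encode the alpha and beta subunits of the mitochondrial trifunctional protein, which carries out the hydratase, dehydrogenase and thiolase reactions on long chains. Hadha had 1921, 1810.3, 1660 and 1821 CPM in knockouts at 6 °C, against 1683, 1724, 1812 and 1912 CPM in knockouts at 22 °C. In wild types it had 1813, 1780.1, 1985, 1912 and 1913 CPM at 6 °C, against 1574, 1672, 1422 and 1544 CPM at 22 °C. The wild-type groups did not overlap with each other, and both knockout groups overlapped with the cold wild types. Its change was 0.02 ± 0.09 log2 in knockouts (adjusted p = 0.932) and 0.28 ± 0.09 in wild types, a fold of 1.21 (adjusted p = 0.0241, both in edgeR).

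Hadhb, too, was highest in cold wild types and lowest in wild types at 22 °C by group mean. It had 1114, 1131, 1062 and 1009 CPM in knockouts at 6 °C, against 1096, 1043, 1063 and 1224 CPM in knockouts at 22 °C. Wild types held 1146, 1174, 1262, 1128 and 1073 CPM at 6 °C, against 1028, 971, 925 and 949 CPM at 22 °C. Cold wild types again lay above all wild types at 22 °C, with changes of -0.04 ± 0.09 log2 in knockouts (adjusted p = 0.835) and 0.26 ± 0.09 in wild types, a fold of 1.19 (adjusted p = 0.0346, both in edgeR). Per length, Hadhb stood at 0.734 to 0.873 of Hadha in every library. In GENCODE vM21, 19.7% of the 50-base words of Hadhb recur in other genes, chiefly Gm13910, against 0.0341% of those of Hadha. How reads from such words were assigned is not given, so the level of Hadhb and this ratio are uncertain.

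Both wild-type calls lay near the threshold, and leaving out 1 library could end them while the change stayed at 0.24 to 0.28 log2 for Hadha and 0.23 to 0.26 log2 for Hadhb in the fits that lost the call. For Hadha the call was lost on leaving out replicate 3 (adjusted p = 0.0817) or 4 (0.0542) of the wild types at 22 °C, or replicate 3 of those at 6 °C (0.0564). For Hadhb it was lost on leaving out replicate 2 (0.0659), 3 (0.0839) or 4 (0.0744) of the wild types at 22 °C, or replicate 1 (0.0546), 2 (0.0744) or 3 (0.0821) of those at 6 °C. The sizes did depend on the scaling. With libraries scaled to their total counts, the changes in wild types were 0.07 log2 for Hadha and 0.05 log2 for Hadhb, beside a median of -0.23 over all tested genes.

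The other 3 genes of these steps did not pass in either genotype with TMM scaling. Scaled to totals outside mitochondrially encoded genes, all 3 fell in knockouts, beside a median of -0.13 log2 over all tested genes. The log2 changes were then -0.33 for Hadh (adjusted p = 0.0247), -0.29 for Echs1 (0.0387) and -0.29 for Acaa2 (0.0346, all in edgeR). Hadh then also fell in wild types (-0.26, adjusted p = 0.0405 in edgeR). With library totals all 3 fell in the average and did not pass in knockouts. Acaa2, the medium-chain and long-chain thiolase, had 626, 724, 566 and 664 CPM in knockouts at 6 °C, against 629, 779, 756 and 779 CPM in knockouts at 22 °C. It had 654, 646, 639, 622 and 676 CPM in wild types at 6 °C, against 582, 684, 660.1 and 648 CPM in wild types at 22 °C, so that all groups overlapped. Hadh, the hydroxyacyl-CoA dehydrogenase of shorter chains, changed by -0.22 ± 0.1 log2 in knockouts (adjusted p = 0.123) and -0.09 ± 0.09 in wild types (adjusted p = 0.487). Echs1, the short-chain hydratase, had values of -0.19 ± 0.09 in knockouts (adjusted p = 0.167) and 0.08 ± 0.09 in wild types (adjusted p = 0.53, all in edgeR).

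The auxiliary enzymes that prepare unsaturated chains and the electron transfer flavoproteins had 0 of 6 members called in either genotype. Of all tested genes, 21.6% were called in knockouts and 27.6% in wild types. Eci1, an enoyl-CoA isomerase, had 203, 254, 162 and 269 CPM in knockouts at 6 °C, against 219.5, 255, 245 and 231 CPM in knockouts at 22 °C. In wild types it had 218, 195, 199.8, 208 and 197 CPM at 6 °C, against 191, 217, 241 and 255 CPM at 22 °C. The cold knockouts had both the lowest and the highest value of Eci1, and all groups overlapped. Eci2, a related isomerase, lay at 78.9 to 117 CPM and Decr1, the dienoyl-CoA reductase, at 417 to 606 CPM, and their log2 changes were between -0.16 and 0.1 in the 2 genotypes.

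Etfa, the alpha subunit of the electron transfer flavoprotein, had 346, 434, 359.5 and 337 CPM in knockouts at 6 °C, against 363, 421, 375 and 418 CPM in knockouts at 22 °C. It had 408, 360.3, 387, 328 and 310.1 CPM in wild types at 6 °C, against 349.8, 339, 301 and 309 CPM in wild types at 22 °C. Cold and 22 °C overlapped in both genotypes. Etfdh, which passes the electrons on to ubiquinone, had 494, 639, 681 and 584 CPM in knockouts at 6 °C and 526, 483, 525 and 693 CPM in knockouts at 22 °C. For wild types the values were 683, 618, 746, 574 and 598 CPM at 6 °C and 481, 508, 506 and 566 CPM at 22 °C, with no overlap. Its wild-type change of 0.33 ± 0.12 log2 missed the threshold in edgeR (adjusted p = 0.0546) and passed in DESeq2 (adjusted p = 0.0298). Etfb, the beta subunit, had values of -0.1 ± 0.12 in knockouts and -0.01 ± 0.11 in wild types. Exons of other genes on its strand cover 58.2% of its exonic bases, mostly those of Gm45233, which itself had 0 to 5 counts a library. As for Cpt1b, the treatment of reads found in both genes is not given, so the level of Etfb (84.7 RPKM on average) may be too low.

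Of the 2 peroxisomal genes, Acaa1a fell in both genotypes. It encodes a peroxisomal thiolase, the last step of that spiral. Knockouts had 19, 16.3, 7.59 and 17.6 CPM at 6 °C, against 26.4, 23.1, 25.9 and 15.6 CPM at 22 °C. Wild types had 15, 12.7, 13.9, 17.4 and 15.5 CPM at 6 °C, against 22.5, 22.8, 25.3 and 21.3 CPM at 22 °C. In wild types all cold libraries lay below all others of that genotype, and in knockouts 1 library at 22 °C, replicate 4, lay inside the cold range. Acaa1a fell by 0.59 on the log2 scale in knockouts (SE 0.2, fold 0.663, adjusted p = 0.0438), by 0.65 in wild types (SE 0.19, fold 0.638, adjusted p = 0.0175) and by 0.62 in the average (SE 0.14, adjusted p = 0.00172, all in edgeR). In knockouts the call was lost in 15 of 17 fits without 1 library (adjusted p of 0.0522 to 0.157), all but those without replicate 4 of either knockout group, and the log2 change was -0.38 without knockout 6 °C replicate 3. In wild types leaving out replicate 2 (adjusted p = 0.0688) or 3 (0.0537) at 22 °C ended the call.

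Close copies of Acaa1a can take or give reads. In GENCODE vM21, 12.9% of its 50-base words recur in other genes, chiefly Acaa1b, which was itself measured at 3.79 to 10.8 CPM. Ehhadh, the peroxisomal bifunctional enzyme, had 93.7, 166, 79.5 and 267 CPM in knockouts at 6 °C, against 149, 88.2, 110.1 and 82.8 CPM in knockouts at 22 °C. Wild types held 157, 194, 85.2, 91.4 and 147 CPM at 6 °C, against 78, 139.7, 157 and 145 CPM at 22 °C. Ehhadh varied 3.42 times between its lowest and highest library with full overlap of the groups, and its changes of 0.45 ± 0.34 log2 in knockouts and 0.05 ± 0.32 in wild types did not pass.

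Thioesterases, which release free fatty acid from acyl-CoA, had 1 rise of 3 members in the average and 0 in either genotype. Among all tested genes 20.6% rose in the average, 11.6% in knockouts and 14.3% in wild types. Acot2, a mitochondrial thioesterase, had 37.6, 36.9, 44.2 and 45.7 CPM in knockouts at 6 °C, against 36.5, 25.4, 34.3 and 40.9 CPM in knockouts at 22 °C. It had 60.5, 51.1, 47.7, 35.5 and 39.5 CPM in wild types at 6 °C, against 28.7, 37.4, 38.4 and 42.5 CPM in wild types at 22 °C. Cold values lay higher on the whole but overlapped in both genotypes, and Acot2 rose by 0.31 ± 0.12 log2 in the average (adjusted p = 0.0468 in edgeR), with values of 0.26 ± 0.17 in knockouts and 0.35 ± 0.16 in wild types. With library totals it was 0.17 (adjusted p = 0.24). That call was lost in 9 of 17 fits without 1 library (adjusted p of 0.0563 to 0.0905) and kept without wild type 22 °C replicates 3 or 4, wild type 6 °C replicates 4 or 5, knockout 22 °C replicates 1 or 4, or knockout 6 °C replicates 1 or 2. Acot1, its cytosolic neighbour on chromosome 12, was low at 1.6 to 12.1 CPM, and since 27.7% of the 50-base words of Acot2 and 19.2% of those of Acot1 recur in other genes, how reads were shared between them is uncertain.

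Acot11, a thioesterase first described as cold-induced in brown fat, had 764, 337, 261 and 520.4 CPM in knockouts at 6 °C, against 491, 575, 606 and 446 CPM in knockouts at 22 °C. Wild types held 355, 409, 607, 825 and 494 CPM at 6 °C, against 822, 519, 387 and 369 CPM at 22 °C. The highest value of each temperature was nearly the same (825 and 822 CPM), and neither genotype passed, with wide limits: the log2 values were -0.23 ± 0.3 in knockouts (95% interval -0.87 to 0.4) and 0 ± 0.28 in wild types (95% interval -0.6 to 0.6).

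Of the ketone body enzymes, Acat1, a mitochondrial acetoacetyl-CoA thiolase, had 502, 669, 615 and 675 CPM in knockouts at 6 °C, against 549.6, 625, 643 and 794 CPM in knockouts at 22 °C. It had 650, 579, 757, 588 and 517 CPM in wild types at 6 °C, against 570, 532, 550.2 and 594 CPM in wild types at 22 °C. Neither genotype showed a separation. Oxct1, the enzyme by which tissues use ketone bodies, lay at 176 to 285 CPM, with changes of -0.08 ± 0.14 log2 in knockouts and 0.1 ± 0.13 in wild types.

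Bdh1, the mitochondrial hydroxybutyrate dehydrogenase, was at the edge of detection. It had 0.2, 0.271, 0.819 and 0.164 CPM in knockouts at 6 °C, against 0.172, 0.0641, 0.267 and 0.0416 CPM in knockouts at 22 °C. Wild types had 0.85, 0.186, 0.272, 0.715 and 1.33 CPM at 6 °C, against 0.38, 0.404, 0.0302 and 0.131 CPM at 22 °C. These values stand for 1 to 46 reads a library, and the highest came from wild type at 6 °C replicate 5, the library with the Alb reads. Bdh1 rose by 1.38 ± 0.53 log2 in the average (adjusted p = 0.0449 in edgeR), and without that library the value was 1.17 (adjusted p = 0.0851). The call was lost in 10 of 17 fits without 1 library (adjusted p of 0.0532 to 0.166), with the lowest value, 0.98, without knockout 6 °C replicate 3, and it was kept without wild type 22 °C replicates 1 or 2, wild type 6 °C replicates 2 or 3, knockout 22 °C replicate 3, or knockout 6 °C replicates 1 or 4.

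**Figure D3:**
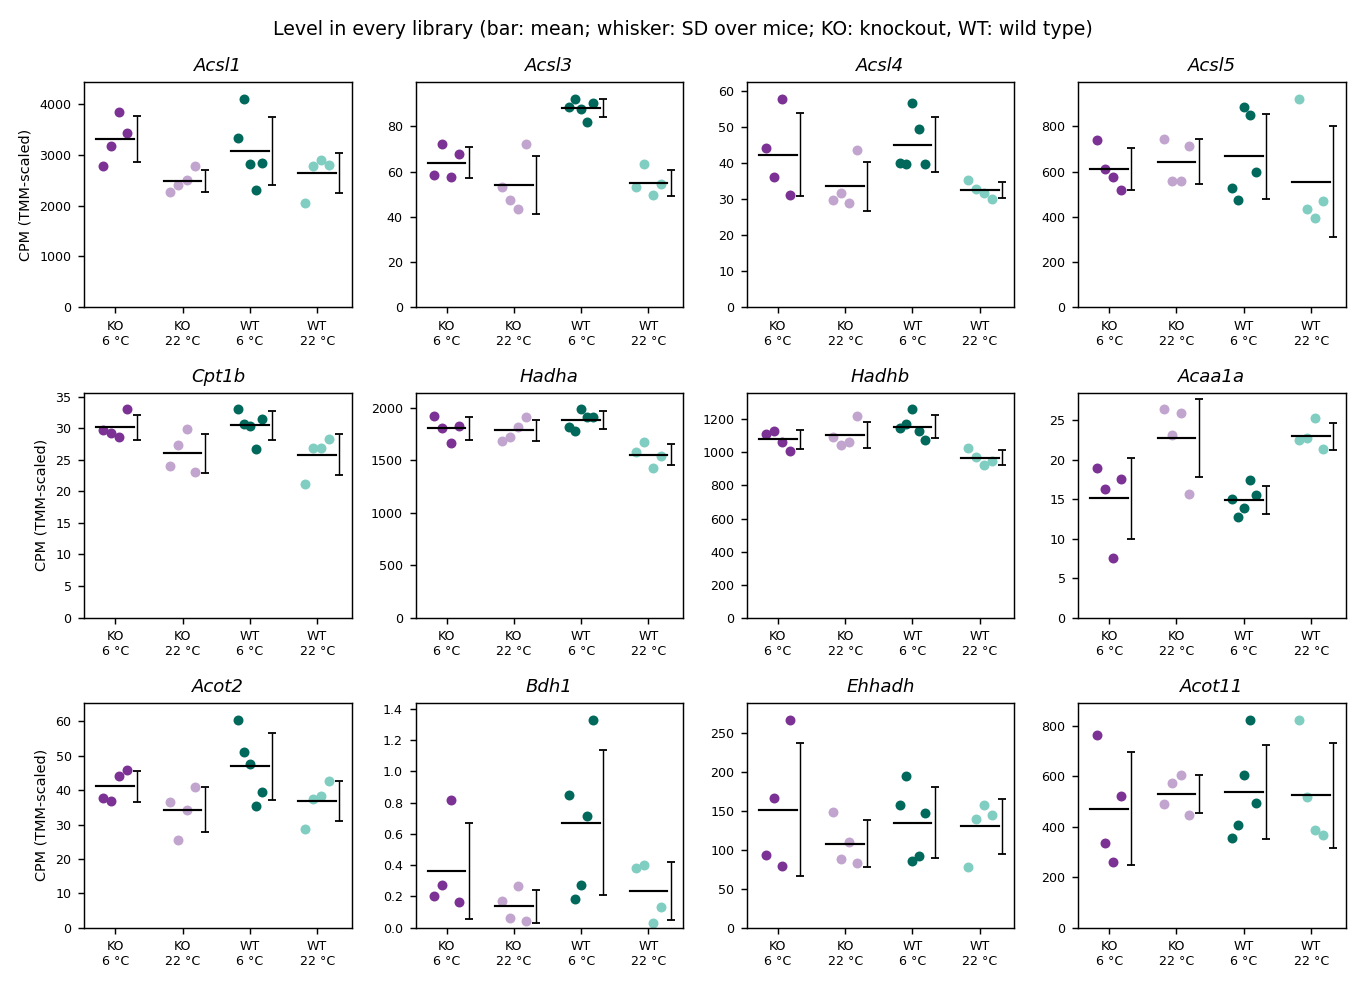
TMM-scaled CPM of 12 of the genes in every library, by group (knockout at 6 °C, knockout at 22 °C, wild type at 6 °C and wild type at 22 °C); bars are means, whiskers SD over 4, 4, 5 and 4 mice, and each axis starts at 0. Acsl3 separates cold wild types (81.8 to 92.1 CPM) from all other libraries, Acaa1a is lower in the cold in both genotypes, and Acsl5, Ehhadh and Acot11 spread widely inside groups.

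The promoters of members that rose or fell in either genotype are shown for their sequence, as windows from 250 bases before to 50 bases after the RefSeq start site (GRCm38.p6), read 5′ to 3′ along the gene. Capitals mark the GC box (GGGCGG) and the CCAAT box (CCAAT) on either strand; matches can abut or overlap. Hadha and Hadhb lie head to head on chromosome 5, with the outermost GENCODE vM21 start sites at 30155162 and 30155248, 86 bases apart. Their RefSeq windows share the 228 bases from 30155003 to 30155230, so only the window of Hadhb is printed, of which these are the first 228. Windows are at chr8:46470787-46471086 (plus strand, Acsl1), chr1:78657575-78657874 (plus, Acsl3), chrX:142390486-142390785 (minus, Acsl4), chr5:30155003-30155302 (plus, Hadhb) and chr9:119341044-119341343 (plus, Acaa1a).
Acsl1: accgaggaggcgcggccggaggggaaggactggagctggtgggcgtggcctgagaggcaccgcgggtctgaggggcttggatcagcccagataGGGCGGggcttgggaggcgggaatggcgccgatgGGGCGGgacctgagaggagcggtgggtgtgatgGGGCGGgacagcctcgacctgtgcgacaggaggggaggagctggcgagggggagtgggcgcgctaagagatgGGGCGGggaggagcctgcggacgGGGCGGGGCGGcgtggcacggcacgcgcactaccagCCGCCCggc
Acsl3: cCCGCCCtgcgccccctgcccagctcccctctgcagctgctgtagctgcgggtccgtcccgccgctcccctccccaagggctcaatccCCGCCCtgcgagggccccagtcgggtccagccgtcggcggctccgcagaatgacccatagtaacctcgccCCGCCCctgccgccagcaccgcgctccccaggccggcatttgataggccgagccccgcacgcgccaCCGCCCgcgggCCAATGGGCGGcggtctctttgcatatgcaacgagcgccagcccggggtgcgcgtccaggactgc
Acsl4: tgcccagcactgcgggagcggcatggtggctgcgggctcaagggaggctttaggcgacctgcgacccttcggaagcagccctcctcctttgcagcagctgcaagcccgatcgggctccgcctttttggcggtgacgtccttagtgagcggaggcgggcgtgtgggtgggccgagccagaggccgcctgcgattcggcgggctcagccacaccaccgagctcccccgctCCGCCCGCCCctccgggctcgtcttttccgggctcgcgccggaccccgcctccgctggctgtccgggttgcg
Hadhb: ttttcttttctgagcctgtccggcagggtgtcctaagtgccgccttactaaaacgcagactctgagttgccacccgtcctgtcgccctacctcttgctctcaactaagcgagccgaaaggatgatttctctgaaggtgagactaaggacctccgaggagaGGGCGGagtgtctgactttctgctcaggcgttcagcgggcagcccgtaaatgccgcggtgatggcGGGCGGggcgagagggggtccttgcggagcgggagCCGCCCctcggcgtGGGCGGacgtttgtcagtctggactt
Acaa1a: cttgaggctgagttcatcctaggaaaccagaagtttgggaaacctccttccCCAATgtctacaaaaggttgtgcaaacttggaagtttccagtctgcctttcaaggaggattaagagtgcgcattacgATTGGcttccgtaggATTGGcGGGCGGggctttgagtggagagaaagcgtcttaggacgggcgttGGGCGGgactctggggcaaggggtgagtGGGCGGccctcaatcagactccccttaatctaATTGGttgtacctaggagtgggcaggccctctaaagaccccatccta
The GC box occurs 7 times in the window of Acsl1, 5 times in that of Acsl3, 2 times in that of Acsl4, 4 times in that of Hadhb and 3 times in that of Acaa1a, and the window of Acaa1a also has 4 CCAAT boxes. Among the 26 members with a RefSeq window, 18 (69.2%) have a GC box, against 35.9% of 27025 gene windows, and 13 (50%) a CCAAT box, against 37.9%. The 27025 windows were 1 per gene symbol and were not limited to tested genes, whereas all members were tested. The GC box in the window of Hadha is also 1 of the 4 in that of Hadhb. The TATA box (TATAAA) occurs in 0 of the 26 and in 14.2% of all windows. The oestrogen-related receptor element (TNAAGGTCA), the direct repeat read by PPAR and its partner (AGGNCANAGGNCA) and the full cAMP response element (TGACGTCA) occur in 0 of the 26 members and in 1.26%, 0.381% and 1.88% of all windows, with both strands searched. These counts describe letters in a 300-base window only.

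The other genes of the pathway, 61 in all and 57 of them tested, held regulators, transporters and further enzymes. In knockouts 5 rose and 2 fell, in wild types 8 rose and 5 fell, and in the average 12 rose and 8 fell. With 57 genes tested, these counts stand beside 11.6% and 10% of all tested genes that rose and fell in knockouts, 14.3% and 13.3% in wild types and 20.6% and 20.5% in the average, and nothing particular to the list is read from them. Ppargc1a, a coactivator of oxidative genes, had 862 to 1619 CPM in knockouts at 6 °C and 90.3 to 154 CPM in knockouts at 22 °C, a rise of 3.37 ± 0.35 log2 (adjusted p = 1.89e-05 in edgeR). It had 933 to 1429.6 CPM in wild types at 6 °C and 92.4 to 493 CPM in wild types at 22 °C, a rise of 2.86 ± 0.35 (adjusted p = 3.96e-05 in edgeR). Pdk4, a kinase that restrains pyruvate oxidation, had 2463 to 3835 CPM in knockouts at 6 °C and 1228 to 2092 CPM in knockouts at 22 °C, and it rose by 0.88 ± 0.19. It had 2536 to 4383 CPM in wild types at 6 °C and 1625 to 2367 CPM in wild types at 22 °C, and it rose by 0.91 ± 0.18.

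Acot4, a peroxisomal thioesterase, rose by 1.2 ± 0.18 log2 in knockouts and 0.7 ± 0.17 in wild types, and Them4, a mitochondrial thioesterase, by 0.58 ± 0.17 and 0.89 ± 0.16. Acot6 rose in knockouts (0.64 ± 0.18) and Fabp3, a fatty acid binding protein, in wild types (0.61 ± 0.19). Slc27a1, a fatty acid transport protein with synthetase activity, fell by 0.96 on the log2 scale in wild types (SE 0.24). Esrrg, an oestrogen-related receptor gene, fell by 0.59 in knockouts (SE 0.17) and by 0.57 in wild types (SE 0.16). Averaged over the genotypes, Fgf21 rose by 2.43 ± 0.77, a gene for a secreted factor at no more than 7.31 CPM in any library.

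The study also asked whether loss of Noct alters these responses. No member passed for the genotype difference at 6 °C (0 of 31, beside 0.04% of all tested genes in either direction), at 22 °C (0 of 31, beside 0.016%), or for the cold response of knockouts minus that of wild types (0 of 31, beside 0.00801%, all in edgeR). Unadjusted p values under 0.05 numbered 1 at 6 °C, 0 at 22 °C and 2 for the difference between the responses. Among all 12486 tested genes such values numbered 393 at 6 °C, 486 at 22 °C and 310 for that difference. DESeq2 called 0 members in each comparison. The lowest adjusted p was 0.844 at 6 °C.

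The 1 member with a low unadjusted p at 6 °C was Acsl3. Its 4 cold knockouts (57.8 to 72 CPM) lay below its 5 cold wild types (81.8 to 92.1 CPM), a difference of -0.54 ± 0.14 log2 with an unadjusted p of 0.00111 and an adjusted p of 0.844 in edgeR. The difference between its cold responses was -0.44 ± 0.18 (unadjusted p = 0.0249, adjusted p = 1). For Hadhb the difference between the responses was -0.29 ± 0.12 (unadjusted p = 0.0309, adjusted p = 1) and for Hadha -0.26 ± 0.12 (unadjusted p = 0.052, adjusted p = 1). Their rise in wild types and its absence from the calls in knockouts is therefore not shown to be a difference between the genotypes.

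The intervals of the genotype difference give the precision. At 6 °C the 95% interval lay within a fold of 1.5 for 22 of 31 members, beside 58.6% of all tested genes. At 22 °C it did so for 25 members, beside 56%. Groups did not overlap for 1 of 31 members at 6 °C (Acsl3), beside 1.04% of all tested genes, and for 3 of 31 at 22 °C (Hadha, Hadhb and Etfa), beside 4.22%. Hadha had 1683 to 1912 CPM in knockouts and 1422 to 1672 CPM in wild types (0.2 ± 0.1 log2, adjusted p = 0.998 in edgeR). For the difference between the responses 19 of 31 intervals lay within that fold, beside 39.4% of all tested genes. Those of Acsl3, Acsl4, Acsl5, Etfdh, Ehhadh, Acaa1a, Acot1, Acot2, Acot11, Bdh1, Oxct1 and Acat1 did not.

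**Figure D4:**
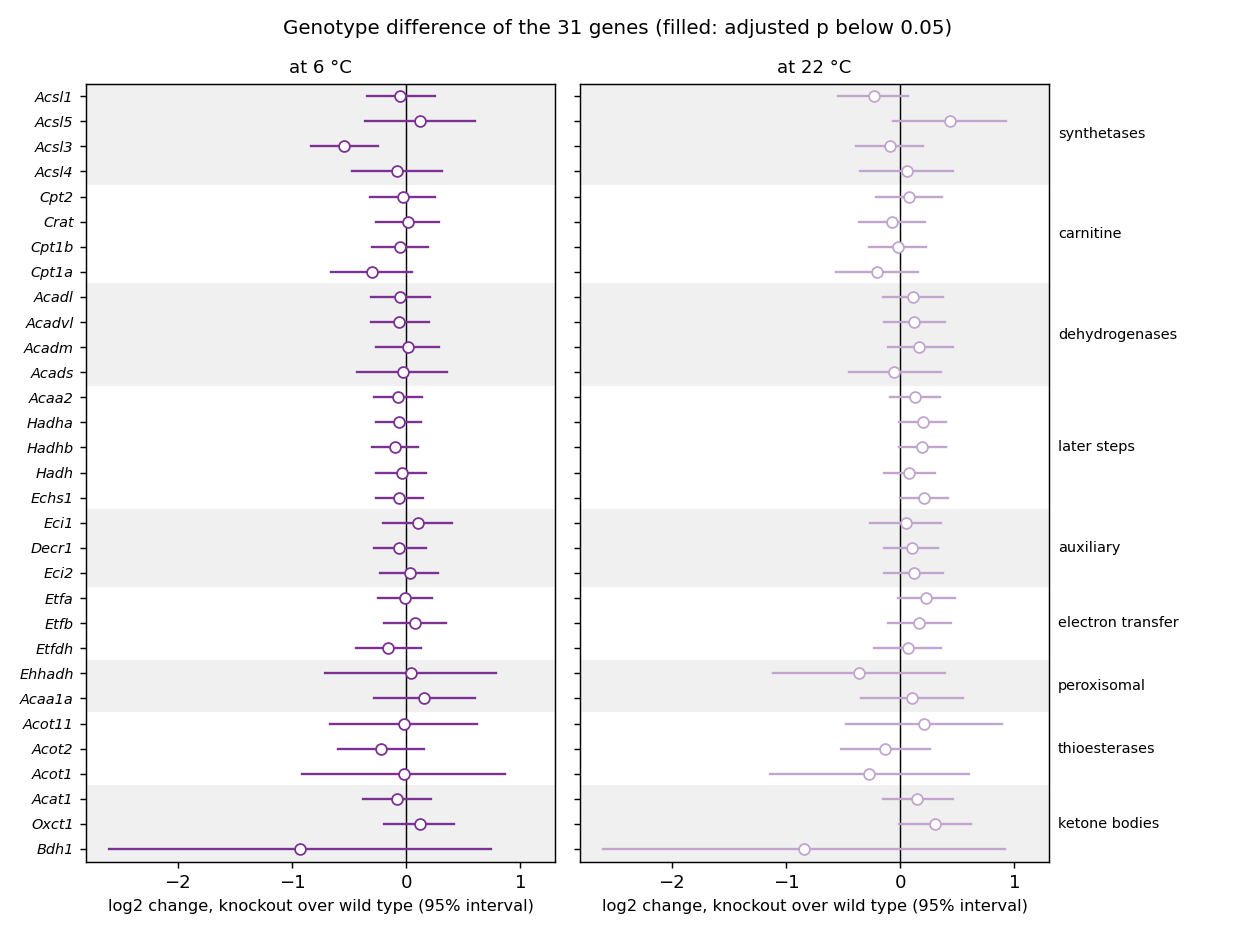
Log2 change of each of the 31 genes in knockouts over wild types at 6 °C (left) and 22 °C (right), with its 95% interval; open circles did not pass the test (adjusted p of 0.05 or more in edgeR). All 62 circles are open; Acsl3 at 6 °C (-0.54, interval -0.83 to -0.25) is the gene whose interval lies farthest from 0 relative to its width.

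Sex was unevenly spread over the genotypes, with 6 of 8 knockouts and 2 of 9 wild types labelled male, and was a term of the fit. For the sex difference, male minus female, a comparison added after the data were seen, 0 of 31 members passed, beside 0.0641% of all tested genes (8 genes) in edgeR, DESeq2 called 0 members, and 2 had an unadjusted p under 0.05. These were Acsl1 (0.29 ± 0.11 log2, unadjusted p = 0.0144, adjusted p = 0.706) and Acsl5 (-0.43 ± 0.18, unadjusted p = 0.0266, adjusted p = 0.855). Among all 12486 tested genes, 691 had an unadjusted p under 0.05 for the sex difference.

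Among mice of 1 group, some of the members moved together. Taking each library's deviation from its group mean of log2(CPM + 1) over the 17 libraries, the closest of 465 pairs were Acadl and Etfa (Pearson r = 0.95, Spearman rho = 0.92), Hadh and Acaa2 (0.9 and 0.76) and Cpt2 and Acads (0.85 and 0.79). The most opposed were Acsl4 and Ehhadh (-0.86 and -0.8), Acsl4 and Acads (-0.82 and -0.58) and Acsl1 and Acot11 (-0.79 and -0.75). Without the 2 libraries farthest from the median of the first gene, r was 0.93 for Acadl and Etfa, 0.77 for Hadh and Acaa2, 0.6 for Cpt2 and Acads, -0.88 for Acsl4 and Ehhadh, -0.64 for Acsl4 and Acads and -0.8 for Acsl1 and Acot11. For Hadha and Hadhb r was 0.46 (rho 0.33), and 0.42 without 2 libraries. The pairs share library, depth, scaling and tissue makeup, were picked as extremes among 465, and are given as a description. With the summed endothelial markers, the deviations of Eci1 had r = -0.83, those of Crat -0.79 and those of Eci2 -0.7. Acsl4 had r = 0.59 with the skeletal muscle markers, 0.49 with the endothelial and -0.53 with the macrophage markers. With the brown adipocyte markers Etfdh had r = 0.83 and Acat1 0.77, and the sums of these markers were 10246 to 14020.1 CPM in knockouts at 6 °C, 5952 to 8248 CPM in knockouts at 22 °C, 10893 to 14461 CPM in wild types at 6 °C and 5781 to 7590.1 CPM in wild types at 22 °C. Their part in the results of these genes was not tested.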

How the data were processed

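The deposited table of raw counts per gene symbol (21982 genes, 17 libraries) was used as deposited. The authors' deposited RPKM values were used for levels compared between genes. In 12602 genes they equalled counts divided by length and column total, to a relative spread of at most 3.03e-15. STAR and HTSeq with the builds mm10 and GRCm38.p6 are named per the submitters' processing notes; versions, annotation and strand setting are not given in the sources used here. Libraries were prepared from total RNA of tissue, per the labels' protocols. Replicates are different mice.

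Counts were tested in R 4.3.3 with edgeR 4.0.16: filterByExpr by group (12486 genes), TMM scaling, and 1 quasi-likelihood fit to 17 libraries with a mean per group and sex, leaving 12 residual degrees of freedom. Adjustment of p was by Benjamini-Hochberg over the 12486 genes, and calls needed a value under 0.05. CPM are TMM-scaled, SE is that of the fitted log2 change, and intervals are at 95%. Alternatives used limma 3.58.1 on log2(RPKM + 1) and log2(RPKM + 0.1), DESeq2 1.42.0, other scalings, filters and covariates, and fits without 1 library. The scripts were tested on simulated counts with known changes in genes drawn from all tested genes. Of 100 genes changed by 0.5 log2, 17 were recovered in the cold response of either genotype. Of 100 changed by 1 log2, 60 were recovered in knockouts and 62 in wild types. Far fewer genes changed there than were called in the real data, so these shares need not hold for the members. Library totals of 18410748 to 47598200 counts leave the spread between mice as the main limit of precision for abundant members.

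The members, gene lists and comparisons were chosen with earlier results of these data known. Named were all members past the threshold, the most abundant member of each role, and up to 6 other pathway genes with the largest change per comparison. Gene positions, exon overlaps and shared 50-base words came from GENCODE vM21 (GRCm38), and promoter windows from RefSeq (GRCm38.p6), which matched 26 of 31 members.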

Additional observations from a re-analysis of the deposited data

Results flagged for a closer look

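In 6 of 124 sets of 1 member in 1 group, 1 library lay apart from the others by Dixon's test at 95%, which chance gives in about 1 of 20 sets. In wild type at 22 °C replicate 1, Acsl1 was at 2055 CPM (2788 to 2906 CPM in the other 3), Acsl5 at 921 CPM (396 to 469 CPM) and Hadh at 549.6 CPM (637 to 645 CPM). Without this library the cold response of Acsl5 in wild types passed the test (0.56 log2, adjusted p = 0.028 in edgeR). Acaa2 was at 629 CPM in knockout at 22 °C replicate 1 (756 to 779 CPM in the others). Acot1 was at 7.29 CPM in wild type at 22 °C replicate 4 (4.99 to 5.35 CPM). Bdh1 was at 0.819 CPM in knockout at 6 °C replicate 3 (0.164 to 0.271 CPM).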

How the results depend on the processing

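Acsl3 in wild types and in the average, and Acaa1a in the average, kept their calls in every alternative run, and no call of a member changed sign (412 values, 122 of them past the threshold no longer). The counts depended on the scaling. With library totals, the median log2 change of all genes moved to -0.23 in wild types and -0.09 in knockouts, and rises were 23% of calls in wild types (51.8% with TMM) and 43.9% in knockouts (53.6%). With totals outside mitochondrially encoded genes the shares were 24.1% and 34.4%. Members that rose in wild types numbered 1 with either total, the replicate block with or without sex, or limma on log2(RPKM + 1) or log2(RPKM + 0.1), 2 without a filter, and 1 to 5 without 1 library. Those that fell numbered 2 with totals outside mitochondrial genes, 0 with the replicate block without sex, and 0 to 1 without 1 library. In knockouts 0 rose with either total, no filter, no sex term, sex and age, the block with or without sex, only the groups compared, or limma at either pseudocount (0 to 2 without 1 library). There, 4 fell with totals outside mitochondrial genes, and 0 fell with library totals, no sex term, the block with or without sex, or only the groups compared (0 to 1 without 1 library). In the average 2 rose with library totals or limma, and 1 with totals outside mitochondrial genes (4 to 7 without 1 library). Falls numbered 5 with library totals or limma, 7 with totals outside mitochondrial genes, and 2 with at least 1 CPM in 4 libraries. Of 24 same-numbered pairs of libraries, 11 had a correlation above 0.1, with a range of -0.43 to 0.51. Differently numbered pairs were not compared, so whether replicate numbers pair the samples cannot be told. Genotype and interaction counts were 0 in all alternatives run. The cause of these shifts was not tested. The median SE was 0.12 log2 for the members in wild types and 0.17 log2 for all genes.

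Leaving out 1 library moved the count of wild-type rises by over 1.5 times in 5 fits, to 2 (without wild type 22 °C replicate 2 or 4, or wild type 6 °C replicate 1) or 1 (without replicate 3 of either), and it was 3 to 5 in the other fits. Wild-type falls went to 0 without wild type 22 °C replicate 2 or 3. Knockout rises went to 0 without knockout 22 °C replicate 2 or 3 or knockout 6 °C replicate 1 or 3, and to 2 without knockout 22 °C replicate 4.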
